A study of Saccharomyces cerevisiae with 32 samples.

Results

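PMA1 and PMP2 encode the plasma membrane proton pump of budding yeast and one of the small proteins that accompany it. They were selected by gene symbol with earlier results of these data known; 3 symbols were sought (PMA1, PMP1 and PMP2), 2 were analysed, and PMP1 was not analysed here. The 4 tables together held 5328 genes. PMA1 (YGL008C, on the left arm of chromosome VII by its systematic name) has a coding length of 2757 bases for 918 residues in the RefSeq gene table of assembly R64. PMP2 (YEL017C-A, on the left arm of chromosome V) has 132 bases for 43 residues. Neither gene overlaps another entry of that gene table. The values that led to the choice were the changes of translation in the mutants, so all values below are a description and no test was made on them.

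The study profiled ribosome footprints and mRNA in *Saccharomyces cerevisiae* carrying mutations in Ded1 or in eIF4A, DEAD-box RNA helicases that help the small ribosomal subunit to load on mRNA and scan to the start codon. A cold-sensitive strain, ded1-cs (NSY5), was set against wild-type DED1 (NSY4) at 15 °C, and a temperature-sensitive strain, ded1-ts (NSY11), against a second wild-type DED1 strain (NSY10) at 37 °C. A temperature-sensitive strain of the eIF4A gene TIF1, tif1-ts (NSY21), was set against wild-type TIF1 (NSY20) at 30 °C and at 37 °C. All cells grew in synthetic complete medium and received cycloheximide, which stops elongating ribosomes, at 100 µg/ml for 2 min before harvest. The labels do not describe the alleles further, nor how long the cells spent at each temperature. The 32 samples were 16 footprint and 16 mRNA libraries in 16 groups of 2 replicates, and the deposited tables give 1 value per group. No difference below therefore has a replicate check.

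Pma1 is an essential P-type ATPase that pumps protons out of the cell. The gradient it builds drives the uptake of sugars, amino acids and ions, and it sets the pH of the cytosol. It is among the most abundant proteins of the yeast plasma membrane. Pmp1 and Pmp2 are small, closely related proteolipids with a single membrane-spanning stretch, which copurify with Pma1 and modulate its activity. Translational efficiency (TE) is the footprint level of a gene relative to its mRNA level, here a difference of log2 values. A TE change is the TE of the mutant minus that of the wild type, and a change of 1 on this scale is 2-fold.

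Footprint depth was estimated at 3.88 to 12.04 M reads per deposited column; that of the mRNA libraries is unknown. After a floor of 10 on the mean abundance in both assays, 4855, 5238, 4833 and 4854 genes remained for ded1-cs, ded1-ts, tif1-ts at 30 °C and tif1-ts at 37 °C. Both genes passed it in every table. Their footprint counts ran from 690 reads for PMP2 in ded1-cs to 123316 reads for PMA1 in wild-type TIF1 at 37 °C.

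By level per gene, without correction for length, PMA1 mRNA was among the highest in every strain. It ranked between 4th and 20th from the top in the 8 combinations of strain and temperature, at log2 levels from 13.2 to 14.3. Per kilobase of coding length it ranked lower, between 50th (tif1-ts at 30 °C) and 112th (wild-type DED1 at 15 °C). In wild-type DED1 at 15 °C the log2 footprint level of PMA1 was 14.84 and its log2 mRNA level 13.3. In ded1-cs the corresponding levels were 13.02 and 13.5. The mutant thus had slightly more PMA1 mRNA and far fewer PMA1 footprints.

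At 37 °C the log2 footprint level of PMA1 was 16.56 in wild-type DED1 and 15.06 in ded1-ts, beside log2 mRNA levels of 14.3 and 14.0. In the TIF1 strains at 30 °C the footprint levels were 14.99 in the wild type and 14.86 in tif1-ts, with mRNA levels of 13.5 and 13.3. At 37 °C they were 14.97 and 14.2 for footprints, and 13.4 and 13.2 for mRNA. Footprints of PMA1 were lower in the mutant in each of the 4 pairs, least so for tif1-ts at 30 °C, where the direction turns when levels are scaled to column totals (0.05). Levels of different tables were normalized separately and are not compared directly.

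By level per gene, PMP2 was a moderately abundant mRNA, with log2 mRNA levels from 7.2 to 8.7. Per kilobase of coding length its mRNA ranked high, between 139th (tif1-ts at 30 °C) and 235th (ded1-cs) from the top. In wild-type DED1 at 15 °C its log2 footprint level was 8.97 and its log2 mRNA level 8.2, against 9.2 and 7.7 in ded1-cs. At 37 °C the footprint levels were 10.93 in wild-type DED1 and 11.36 in ded1-ts, and the mRNA levels 8.7 and 8.6. In each of these pairs PMP2 had more footprints and less mRNA in the mutant, except that its footprint change in ded1-cs turns to -0.23 when scaled to column totals.

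The TIF1 strains gave the same arrangement for PMP2. At 30 °C its log2 footprint level was 9.11 in the wild type and 9.96 in tif1-ts, and its log2 mRNA level 8.1 and 7.7. At 37 °C the footprint levels were 9.66 and 10.22, and the mRNA levels 7.9 and 7.2. The pump and its small partner therefore stood on opposite sides of their wild types at the footprint level in all 4 pairs of the deposited values, and in ded1-ts and tif1-ts at 37 °C also when scaled to column totals.

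**Figure D1:**
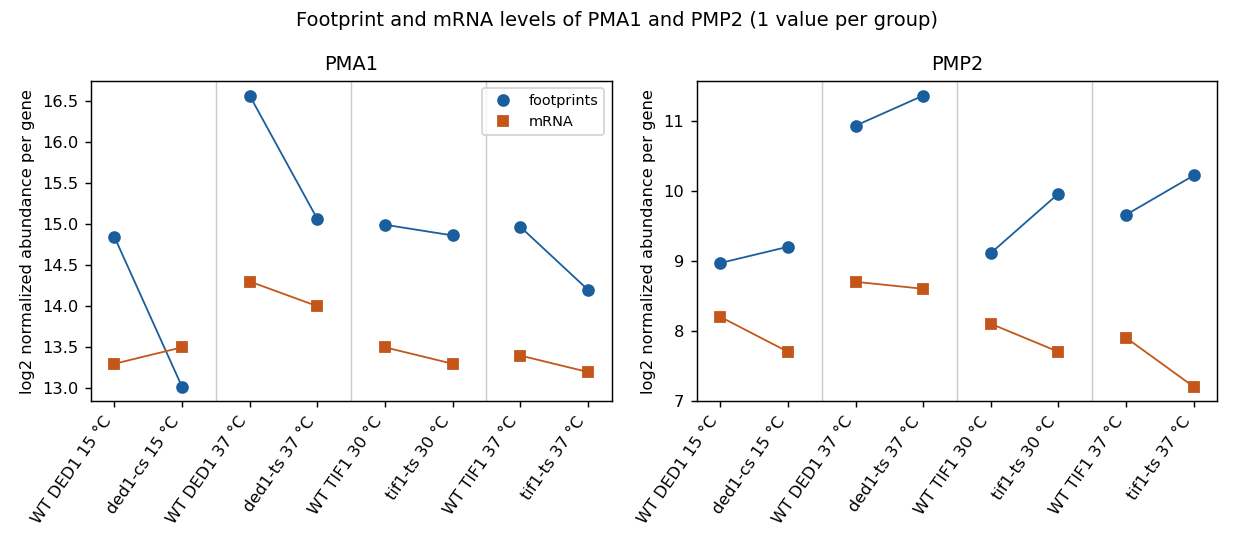
Log2 normalized abundance of footprints (circles) and mRNA (squares) of PMA1 (left) and PMP2 (right) in the 8 combinations of strain and temperature, 1 deposited value each, with lines joining wild type (WT) and mutant of 1 table. The footprint line of PMA1 goes down from wild type to mutant in all 4 tables, from 14.84 to 13.02 in the first, and that of PMP2 goes up, from 9.11 to 9.96 in the third; scaled to column totals, PMA1 in tif1-ts at 30 °C (0.05) and PMP2 in ded1-cs (-0.23) change direction.

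In ded1-cs at 15 °C, PMA1 had one of the lower TE changes of the genome while PMP2 lay in the upper part of the distribution. The authors' deposited table gave PMA1 a TE change of -2.06, from a footprint change of -1.83 and an mRNA change of 0.23. The counting error of that footprint change was 0.02 (SE), which leaves out differences between cultures. The PMA1 TE was thus 4.17-fold lower in the mutant, the 220th lowest of 4855 genes. Lower values are common in this mutant, since 17.4% of all genes were at least 2-fold lower in TE.

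For PMP2 in ded1-cs the authors' deposited table gave a TE change of 0.72, with a footprint change of 0.23 (counting SE 0.07) and an mRNA change of -0.49. This stood at the 80.8th percentile of all genes and did not reach 2-fold, which 8.63% of genes did in that direction. Direction at the footprint level depended on the scaling here, because scaling to column totals in place of the deposited normalization shifts every footprint change of this table by -0.46 and every TE change by -0.44. On that scale the PMP2 footprint change was -0.23, its TE change 0.28, and the PMA1 TE change -2.51.

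For ded1-ts at 37 °C the authors' deposited table gave a PMA1 TE change of -1.15, with a footprint change of -1.49 (counting SE 0.01) and an mRNA change of -0.34. The TE was 2.22-fold lower, the 185th lowest of 5238 genes, in a table where 4.64% of genes were at least 2-fold lower. For PMP2 the authors' deposited table gave a TE change of 0.58, with a footprint change of 0.44 (counting SE 0.04) and an mRNA change of -0.14. It stood at the 86.7th percentile and within 2-fold, a limit that 4.18% of genes passed upwards.

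In tif1-ts at 30 °C, PMA1 was close to its wild type and PMP2 was one of the genes with the highest TE change. The PMA1 TE change was 0.01 in the authors' deposited table, with a footprint change of -0.13 (counting SE 0.01) and an mRNA change of -0.15. Scaled to column totals the 3 PMA1 values were -0.0035 for TE, 0.05 for footprints and 0.06 for mRNA, so no direction is given for it. The PMP2 TE change was 1.31 by the authors' deposited table, the 50th highest of 4833 genes, where 2.34% were at least 2-fold higher and 1.14% at least 2-fold lower. It combined a footprint change of 0.85 (counting SE 0.06) with an mRNA change of -0.46, per the authors' deposited table.

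At 37 °C the TE change of PMA1 in tif1-ts was -0.52 in the authors' deposited table, at the 13.8th percentile of 4854 genes and within 2-fold, a limit that 3.19% of genes passed downwards. It came from a footprint change of -0.76 (counting SE 0.01) and an mRNA change of -0.24 in the authors' deposited table. Scaled to column totals, the PMA1 footprint change was -0.56 and its mRNA change -0.0009. The authors' deposited table gave PMP2 a TE change of 1.28, the 128th highest, beside 5.27% of genes at least 2-fold higher. Its footprint change was 0.56 (counting SE 0.04) and its mRNA change -0.72 in the authors' deposited table.

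Across the 4 comparisons the TE change of PMP2 was above 0 and its mRNA change below 0 each time, also when scaled to column totals. The TE of PMP2 was 2.48-fold higher in tif1-ts at 30 °C and 2.43-fold higher at 37 °C. These values include its lower mRNA. The deposited PMP2 footprint changes there, 0.85 and 0.56, were within 2-fold. Scaled to column totals they were 1.04 and 0.77. Between 37 and 30 °C the tif1-ts TE change of PMP2 differed by -0.03, against -0.53 for that of PMA1. The TE change of PMA1 minus that of PMP2 was -2.79 for ded1-cs and -1.73 for ded1-ts, and for tif1-ts it was -1.29 at 30 °C and -1.80 at 37 °C.

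**Figure D2:**
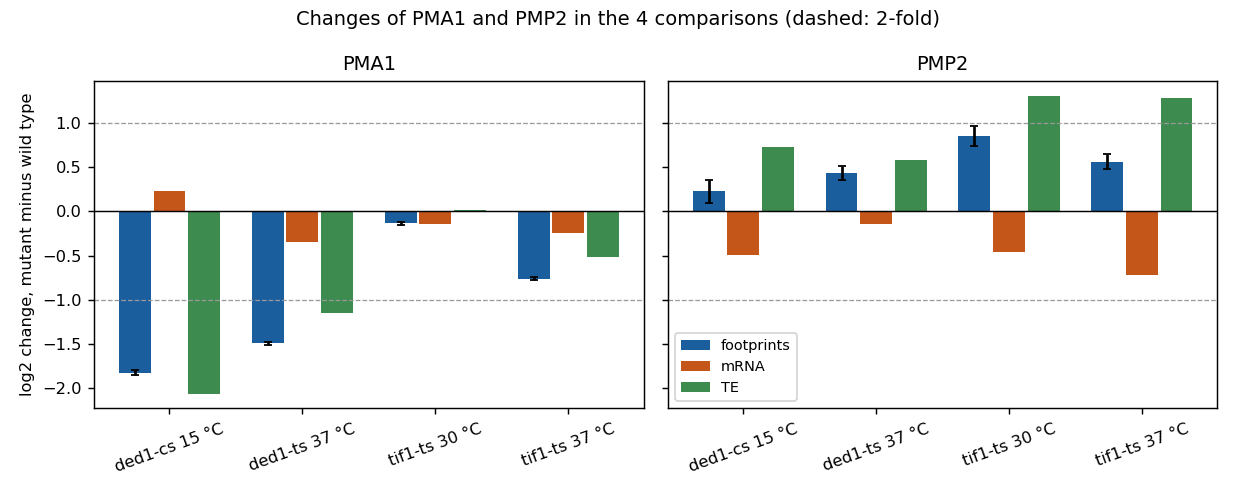
Log2 changes (mutant minus wild type) of footprints, mRNA and TE for PMA1 (left) and PMP2 (right) in the 4 comparisons; whiskers on the footprint bars are 95% intervals for counting error only, and dashed lines mark 2-fold. The PMA1 TE bars pass the lower line in ded1-cs (-2.06) and ded1-ts (-1.15), and the PMP2 TE bars pass the upper line in tif1-ts at both temperatures (1.31 and 1.28).

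**Figure D3:**
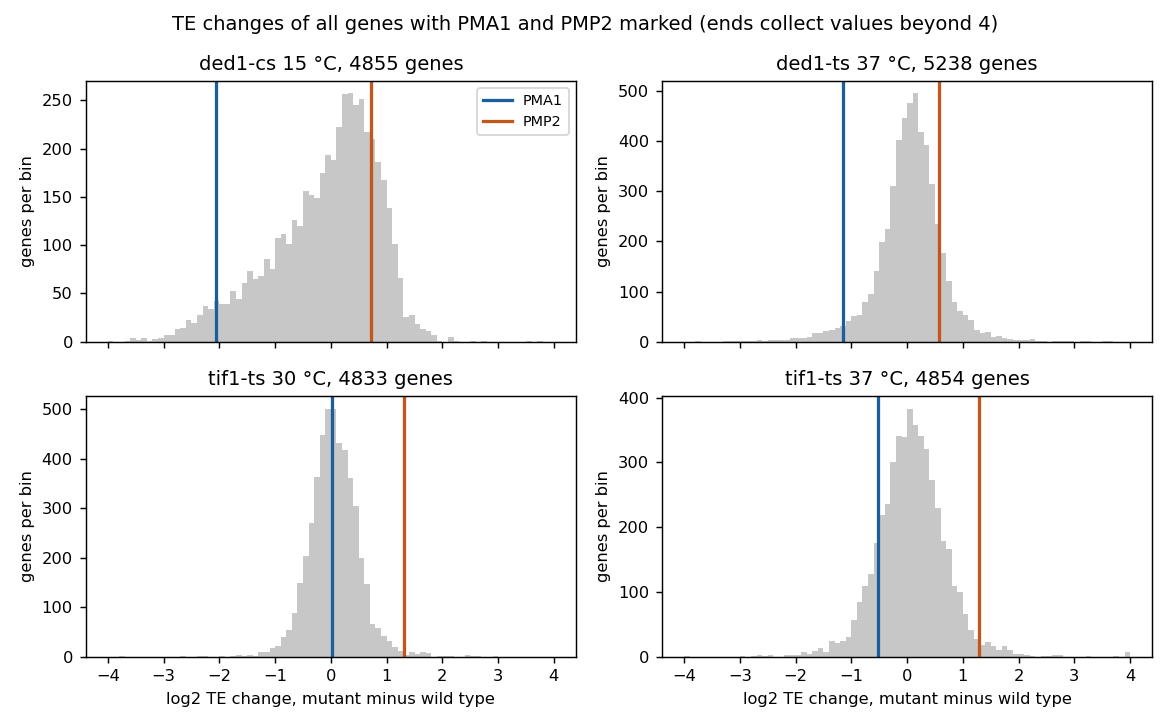
Histograms of the log2 TE change of all genes past the abundance floor in each comparison (genes per bin), with vertical lines at PMA1 and PMP2. PMA1 sits in the lower tail for ded1-cs (-2.06) and ded1-ts (-1.15) and near the centre for tif1-ts at 30 °C (0.01), while PMP2 sits in the upper tail for tif1-ts (1.31 and 1.28).

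The share of all footprints that lay on PMA1 shows the size of the difference without a gene-specific scale. It was 0.752% in wild-type DED1 at 15 °C (95% exact binomial interval 0.747 to 0.757%) and 0.155% in ded1-cs (0.152 to 0.158%). At 37 °C it was 1.08% in wild-type DED1 and 0.412% in ded1-ts. For TIF1 it was 1.01% in the wild type and 1.05% in tif1-ts at 30 °C, and 1.04% and 0.705% at 37 °C. PMA1 thus held a similar share of the footprints in all wild-type cells at 30 and 37 °C. Its share was lower in the Ded1 mutants, and in tif1-ts at 37 °C, than in their wild types. The intervals cover counting error only.

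PMP2 held a far smaller share of the footprints. It had 0.0128% in wild-type DED1 at 15 °C (95% exact binomial interval 0.0122 to 0.0135%) and 0.0110% in ded1-cs (0.0102 to 0.0118%). At 37 °C its share was 0.0217% in wild-type DED1 and 0.0317% in ded1-ts. In the TIF1 strains the PMP2 share was 0.0171% in the wild type and 0.0350% in tif1-ts at 30 °C, and 0.0263% and 0.0447% at 37 °C. The share was higher in the mutant in 3 pairs and lower in ded1-cs.

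Baseline TE was set side by side as a rank within each strain, because the tables were normalized separately. PMA1 stood at the 96.9th percentile of TE levels in wild-type DED1 at 15 °C, the 98.7th at 37 °C, and the 95.3rd and 95.4th in wild-type TIF1 at 30 and 37 °C. In ded1-cs it stood at the 35.9th percentile, below the median gene. Its percentile was 83.2 in ded1-ts, and in tif1-ts it was 94.9 at 30 °C and 83.7 at 37 °C. PMA1 thus lay above nearly all genes in wild-type cells and in the lower part of the TE order in ded1-cs.

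PMP2 ranked lower at baseline in the cooler cultures. It stood at the 84.7th percentile of TE levels in wild-type DED1 at 15 °C and the 87.8th in wild-type TIF1 at 30 °C, against the 98.6th in wild-type DED1 and the 97.0th in wild-type TIF1 at 37 °C. The mutants stood higher, at the 91.9th percentile for ded1-cs and the 99.3rd for ded1-ts. The tif1-ts strain had PMP2 at the 99.3rd percentile at 30 °C and the 99.6th at 37 °C. In tif1-ts at 37 °C PMP2 had the 17th highest TE level of 4854 genes. The wild-type DED1 values at 15 and 37 °C come from different strains, so temperature and strain cannot be told apart there.

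Per kilobase of coding length, the levels of the pump and its partner were much closer than per gene. The log2 mRNA level per kilobase of PMA1 exceeded that of PMP2 by 0.72 to 1.62 in the 8 combinations. The log2 footprint level per kilobase was higher for PMA1 in all 4 wild types, by 1.49 at 15 °C and 1.25 at 37 °C for DED1, and by 1.496 at 30 °C and 0.92 at 37 °C for TIF1. It was lower for PMA1 in 3 of the 4 mutant groups, with differences of -0.56 in ded1-cs, -0.68 in ded1-ts and -0.40 in tif1-ts at 37 °C. In tif1-ts at 30 °C PMA1 remained above PMP2, by 0.52. With coding length as the divisor, the order of the pair was the reverse of the wild-type order in both Ded1 mutants and in tif1-ts at 37 °C only. Another divisor would move the point at which the order turns. The part of footprints near the ends of the short PMP2 sequence was not tested.

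The TE change went with gene length in all 4 tables, and PMA1 is long while PMP2 is one of the shortest genes measured. Across genes, Spearman's rho between length and TE change was -0.42 for ded1-cs and -0.35 for ded1-ts, and for tif1-ts -0.21 at 30 °C and -0.39 at 37 °C. PMA1 belonged to the longest 20% of genes, whose median TE change was -0.61 for ded1-cs and -0.17 for ded1-ts. Within that class, 37.0% and 12.4% of genes were at least 2-fold lower, and PMA1 stood at the 9.07th and 9.66th percentiles. PMA1 was thus low among long genes too, with 88 of 970 and 101 of 1046 genes below it. In tif1-ts its percentile in this class was 56.2 at 30 °C and 29.7 at 37 °C.

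PMP2 was the 6th shortest gene in 3 tables and the 8th shortest in that of ded1-ts. The median TE change of genes of up to 300 bases was 0.78 for ded1-cs and 0.49 for ded1-ts, and PMP2 stood at their 43.8th and 61.0th percentiles. In tif1-ts the medians of these short genes were 0.32 at 30 °C and 0.47 at 37 °C, and PMP2 stood at the 92.9th and 89.9th percentiles. In the Ded1 mutants the PMP2 value was that of a typical short gene, and in tif1-ts it was among the higher ones. The part of length in these results was not tested.

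**Figure D4:**
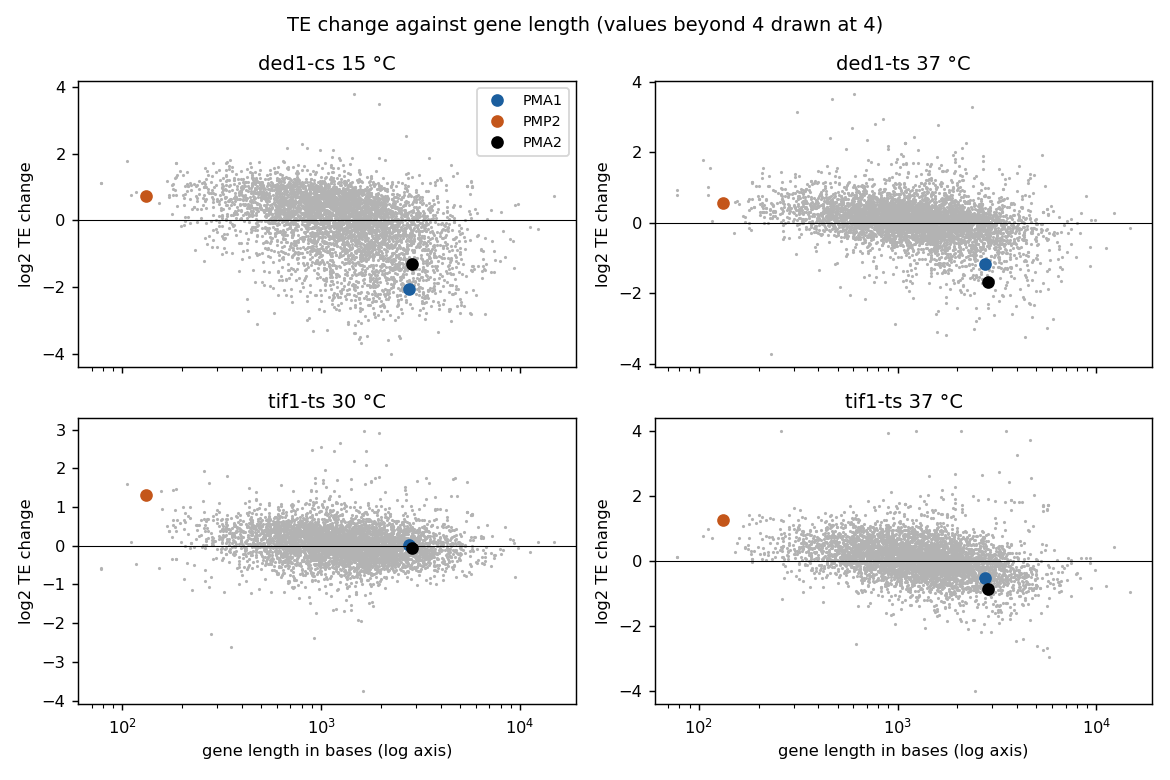
Log2 TE change of each gene against its length in bases (log axis) in the 4 comparisons, with PMA1, PMA2 and PMP2 marked. The cloud slopes down with length; PMA1 lies low at the long end in ded1-cs (-2.06) and ded1-ts (-1.15), and PMP2 lies high at the short end in tif1-ts (1.31 and 1.28).

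The relation of the TE change to mRNA abundance differed between tables. Across genes, Spearman's rho between the wild-type mRNA level per gene and the TE change was 0.07 for ded1-cs and -0.31 for ded1-ts. For tif1-ts it was -0.02 at 30 °C and -0.04 at 37 °C. Genes with higher mRNA levels thus tended to lower TE changes in ded1-ts. These levels are not corrected for length, whose own rho with the TE change there was -0.35. The parts of length and abundance were not tested. The 100 wild-type mRNAs with the highest levels per gene included PMA1. Their median TE changes were 0.61 for ded1-cs and 0.23 for ded1-ts, against 0.10 and 0.08 for all genes. For tif1-ts they were 0.37 at 30 °C and 0.499 at 37 °C, against 0.04 and 0.08. Per kilobase of coding length, PMA1 mRNA ranked 112th in wild-type DED1 at 15 °C and 104th at 37 °C. None of the other members of the set of 100 had a lower TE change than PMA1 in ded1-cs or in ded1-ts. In tif1-ts, 9 of them were below PMA1 at 30 °C and 3 at 37 °C. Of these 100 mRNAs, 4 were lower in TE by 2-fold or more for ded1-cs, and 1, PMA1 itself, for ded1-ts.

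A floor of 100 on abundance in every table and assay left 2341 genes, among them 395 whose TE was lower by 2-fold or more under ded1-cs and 143 under ded1-ts. PMA1 was one of 123 that were lower in both, which is 31.1% of the former and 86.0% of the latter. At the same abundance PMP2 was one of 6 genes at least 2-fold higher in tif1-ts at both temperatures, among 9 at 30 °C and 62 at 37 °C.

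Among genes with a standard name, the 5 whose TE changes over the 4 tables came closest to those of PMA1 were taken. Their root mean square differences ran from 0.11 to 0.15 on the log2 scale. They were UTP22, a ribosome biogenesis factor, the RNA-binding protein gene MRN1, the vacuolar P-type ATPase gene YPK9, AUR1 of sphingolipid synthesis and the endoplasmic reticulum (ER) protein disulfide isomerase family gene EPS1. For UTP22, the closest, the authors' deposited table gave TE changes of -2.17 and -1.25 in the Ded1 mutants (ded1-cs first) and of -0.09 and -0.39 in tif1-ts (30 °C first). For YPK9 the authors' deposited table gave -1.93 and -1.08 in the Ded1 mutants and 0.15 and -0.71 in tif1-ts.

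PMP2 had no neighbour as close among genes with a standard name, with root mean square differences from 0.26 to 0.32 for the nearest of them. These were MCR1, a mitochondrial cytochrome b5 reductase, NCE102, a protein of plasma membrane domains, the glutathione transferase gene GTT1, ISA1 of iron-sulfur cluster assembly and QCR6, a subunit of respiratory complex III. For MCR1 the authors' deposited table gave TE changes of 0.97 and 0.34 in the Ded1 mutants, ded1-cs first, and 1.05 and 0.98 in tif1-ts, 30 °C first. NCE102 followed in the authors' deposited table, at 0.70 and 0.75 in the Ded1 mutants and 0.74 and 1.19 in tif1-ts.

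PMA2 (YPL036W) is the paralog of PMA1 and encodes a pump that is closely related in sequence and little used in wild-type cells. Its log2 footprint level minus that of PMA1 lay between -4.64 and -4.37 in the 8 combinations. The log2 mRNA difference ranged more widely, from -5.0 in wild-type DED1 at 37 °C to -3.4 in tif1-ts at 37 °C. From wild type to mutant it went from -4.0 to -4.7 for ded1-cs and from -5.0 to -4.74 for ded1-ts. For tif1-ts it went from -4.2 to -4.1 at 30 °C and from -3.6 to -3.4 at 37 °C. PMA2 footprints thus kept a nearly fixed ratio to those of PMA1, while the mRNA ratio varied more, largely between tables. Both ratios are uncertain because the assignment of reads matching both genes is unknown.

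The authors' deposited table gave PMA2 footprint changes of -1.85 in ded1-cs and -1.73 in ded1-ts, and of -0.17 and -0.93 in tif1-ts, 30 °C first. They differed from the PMA1 values by 0.03 in ded1-cs to 0.23 in ded1-ts. In TE, the authors' deposited table gave PMA2 changes of -1.32 and -1.68 in the Ded1 mutants, and -0.06 and -0.87 in tif1-ts. The sources used here do not say how reads matching both genes were assigned, so all PMA2 values are uncertain, and the part of shared reads was not tested.

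**Figure D5:**
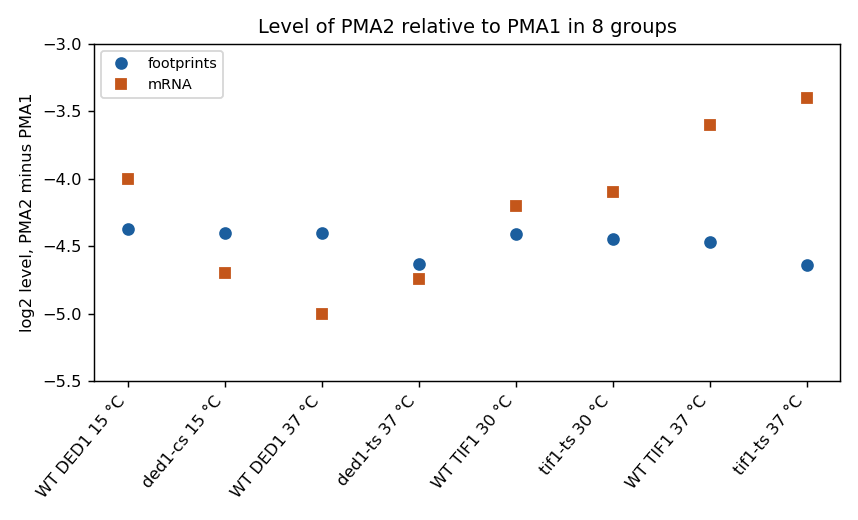
Log2 level of PMA2 minus that of PMA1 for footprints (circles) and mRNA (squares) in the 8 combinations of strain and temperature, 1 deposited value each. The footprint differences stay between -4.64 and -4.37, and the mRNA differences spread from -5.0 to -3.4. PMA2 values are uncertain because the assignment of reads matching both genes is unknown.

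Other P-type ATPases had lower TE in the Ded1 mutants in part, and all 14 that were measured belong to the longest 20% of genes. In ded1-cs, 7 of 14 were lower in TE by 2-fold or more, beside 17.4% of all genes and 37.0% of the longest 20%. These 7 include PMA2, whose values are uncertain because of reads that match PMA1 as well. No member was at least 2-fold higher. Their median TE change was -1.07, against 0.10 for all genes and -0.61 for the longest 20%. At an abundance of 100 or more, the Golgi calcium and manganese pump gene PMR1 (-2.61) and the lipid flippase gene DNF2 (-2.57) were lowest in the authors' deposited table. The highest at that abundance were the ER ATPase gene SPF1 (0.16) and the sodium pump gene ENA2 (-0.16) in the authors' deposited table. For ded1-ts, 4 of 14, PMA2 again included, were at least 2-fold lower and 1 higher, beside 4.64% and 4.18% of all genes. Of the longest 20%, 12.4% were at least 2-fold lower. The median was -0.36, against 0.08 for all genes and -0.17 for the longest 20%. DNF2 (-2.32) and PMR1 (-2.31) were again lowest, and ENA2 (0.10) and ENA5 (0.08) highest, at an abundance of 100 or more in the authors' deposited table; the ENA copies share reads and are uncertain. For tif1-ts none was at least 2-fold lower, none higher by as much at 30 °C and 1 at 37 °C, with medians of -0.08 at 30 °C and -0.29 at 37 °C against -0.04 and -0.26 for the longest 20%.

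Genes that regulate Pma1 or bring it to the cell surface showed no common direction. Of 11 listed genes, 8 were measured in ded1-cs, where 3 were at least 2-fold lower and 1 higher, beside 17.4% and 8.63% of all genes. Their median TE change there was -0.46, against 0.10 for all genes. At an abundance of 100 or more, the casein kinase gene YCK2 (-1.65) and HRK1 (-1.44), whose kinase activates Pma1, were lowest in the authors' deposited table. EXP1, which serves the export of Pma1 from the ER, was highest at that abundance in ded1-cs (1.05), followed by the targeting gene AST1 (0.26), in the authors' deposited table. For ded1-ts none of 9 was at least 2-fold lower and 1 was higher, beside 4.64% and 4.18% of all genes, with a median of 0.20 against 0.08. That gene was HSP30, which encodes a stress-induced inhibitor of Pma1 (TE change 1.82, mRNA change 1.01 in the authors' deposited table). EXP1 followed with a TE change of 0.58, and YCK2 (-0.14) and AST1 (-0.03) were lowest, in the authors' deposited table. Medians in tif1-ts were 0.10 at 30 °C and 0.01 at 37 °C, against 0.04 and 0.08 for all genes. There 1 and 2 of 9 genes were at least 2-fold higher, beside 2.34% and 5.27% of all genes, and none was lower by as much.

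Genes of potassium and sodium homeostasis, which depends on the proton gradient, gave a median TE change of -0.98 for ded1-cs against 0.10 for all genes. In that mutant 4 of 8 were at least 2-fold lower and 1 higher, beside 17.4% and 8.63% of all genes; 4 of the 8 belong to the longest 20% of genes. At an abundance of 100 or more, which 3 of the 8 reached, the sodium-proton antiporter gene NHA1 (-1.16) and the kinase gene HAL5 (-0.86) were lowest and the phosphatase gene PPZ1 (-0.49) highest in the authors' deposited table. For ded1-ts the median was -0.20 against 0.08 for all genes, and none of 8 passed 2-fold. There, at an abundance of 100 or more, the kinase gene SAT4 (-0.69) and NHA1 (-0.57) were lowest, and the potassium channel gene TOK1 (0.23) and HAL5 (0.02) highest, in the authors' deposited table. For tif1-ts the medians were 0.27 at 30 °C and 0.18 at 37 °C, against 0.04 and 0.08 for all genes, with 1 of 8 at least 2-fold higher each time, beside 2.34% and 5.27% of all genes.

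Short membrane proteins of the secretory pathway and plasma membrane had medians above 0 in all 4 tables, as did all genes of up to 300 bases, to which 7 of the 9 measured in ded1-cs belong. Their median TE change was 0.80 in ded1-cs, against 0.78 for all genes of that length. Of the 9 genes, 2 were at least 2-fold higher, beside 34.8% of all genes of up to 300 bases and 8.63% of all genes, and 0 were lower by that much. At an abundance of 100 or more, PMP3, a small plasma membrane protein gene (1.20), and OST5 of the oligosaccharyltransferase (1.02) were highest, and SBH2 (-0.69) and SBH1 (0.07) of the translocon lowest, in the authors' deposited table. For ded1-ts the median was 0.34 over 10 genes, against 0.49 for all genes of up to 300 bases. Of these 10, 1 was at least 2-fold higher, beside 13.2% of the genes of that length. SBH1 (0.56) and YOS1 (0.54) of ER to Golgi transport were highest at an abundance of 100 or more, and SBH2 (-0.45) and the signal peptidase subunit gene SPC1 (-0.43) lowest, in the authors' deposited table. For tif1-ts the medians were 0.52 at 30 °C and 0.55 at 37 °C, against 0.32 and 0.47 for genes of up to 300 bases. There 1 and 4 of 9 genes were at least 2-fold higher, beside 10.1% and 19.2% of the genes of that length.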

How the data were processed

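Footprint and mRNA libraries came from whole yeast cells, with footprints made by RNase I digestion, per the labels' protocols. The authors deposited 4 tables of log2 normalized abundance, with 1 value per group of 2 replicates, and beside them their own log2 changes (mutant minus wild type) of the footprints, the mRNA and TE. The submitters' processing notes name TopHat2 2.0.7, Bowtie2 2.0.6, CASAVA 1.8, DESeq and the build sacCer2, without roles. Not given in the sources used here are how replicates were combined, the treatment of reads with several matches, the strand setting and the annotation. A change is relative to other genes of the same table and does not measure total translation.

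Levels were taken from the level columns, where most mRNA values have 1 decimal, and changes from the authors' differences. The value of 1 footprint read was estimated from the steps between the lowest values; among values of up to 10 reads, 38.0% (ded1-cs) to 100% lay within 0.1 read of a whole number, where chance gives 20%. Counting errors follow from these reads, and PCR copies are not independent molecules. Genes needed a mean abundance of 10 in both assays and at least 1 footprint read in each strain. All but 2 genes per table matched the R64 gene table, whose lengths include introns; its coordinates are not given because its assembly differs from sacCer2. With 1 value per group, no test and no p-value was made. Members, 4 gene lists, the floors and the rule for named genes were chosen with earlier results of these data known. Named genes are the members, PMA2 and the genes closest to each member in TE changes at an abundance of 100 or more. For each member the 5 closest genes with a standard name were taken. The 2 lowest and 2 highest of each list in each Ded1 mutant at that abundance are named too. HSP30 and YPK9 met this rule. Python 3.11.15 with pandas 2.3.3 and SciPy 1.17.1 was used, and the steps were tested on simulated data.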

Additional observations from a re-analysis of the deposited data

Results flagged for a closer look

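For PMA1 in tif1-ts the authors' deposited table gave a TE change of 0.01 at 30 °C and -0.52 at 37 °C, a difference of -0.53 between temperatures. It is listed because the deposited values lie on opposite sides of 0 under the same mutation, but that at 30 °C is too near 0 for a direction. The value at 30 °C was -0.0285 relative to the median of all genes and -0.0035 when scaled to column totals. The difference between temperatures was not tested.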

How the results depend on the processing

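No paired analysis was possible because the deposited tables give 1 value per group, so leaving out a replicate was not possible either. Of 144 alternative values of 56 results, 88 stayed within the limit set for their kind and 56 did not. A 2-fold change could not change sign here, because scaling to column totals shifted values by -0.46 at most. Smaller changes did change sign. The PMA1 TE change in tif1-ts at 30 °C went from 0.01 to -0.0285 relative to the median of all genes. The PMP2 footprint change in ded1-cs went from 0.23 to -0.23 when scaled to column totals. The limit was the footprint counting interval for footprint and TE changes, 0.1 (the rounding of the levels) for mRNA changes, the binomial interval for percentiles, and 1.5 times for counts of genes. The cause of these moves was not tested, beyond the construction of each alternative.

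Differences of the level columns, which carry rounding, gave PMA1 TE changes of -2.02 and -1.2 in the Ded1 mutants (ded1-cs first), and 0.07 and -0.57 in tif1-ts (30 °C first here and below). Relative to the median of all genes the PMA1 TE changes were -2.16 and -1.23 in the Ded1 mutants and -0.0285 and -0.59 in tif1-ts, the PMA1 footprint change in ded1-cs was -1.90, and 278 genes had a TE at least 2-fold higher in ded1-cs.

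Scaling to column totals was added after seeing the data. It gave PMA1 TE changes of -2.51, -1.17, -0.0035 and -0.56 (ded1-cs, ded1-ts, tif1-ts), PMA1 footprint changes of -2.29, -1.38, 0.0521 and -0.56, and PMA1 mRNA changes of -0.21 in ded1-ts and 0.0556 and -0.0009 in tif1-ts. For PMP2 it gave a TE change of 0.28 in ded1-cs, footprint changes of -0.23, 0.55, 1.04 and 0.77, and mRNA changes of -0.0073 in ded1-ts and -0.25 and -0.47 in tif1-ts.

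With an abundance floor of 100, the genes at least 2-fold lower in TE numbered 456 in ded1-cs and 16 and 85 in tif1-ts, and those at least 2-fold higher 249 in ded1-cs, 79 in ded1-ts, and 11 and 80 in tif1-ts. The percentile of the PMA1 TE change became 50.1 and 15.3 in tif1-ts, and that of PMP2 79.4 in ded1-cs, 90.6 in ded1-ts, and 99.9 and 98.6 in tif1-ts; with no floor the last pair was 98.4 and 96.9. The percentile of the PMA1 TE level became 95.7 in wild-type DED1 at 15 °C, 24.9 in ded1-cs, 92.4 and 93.4 in wild-type TIF1, and 91.7 and 77.9 in tif1-ts. That of PMP2 became 79.5 in wild-type DED1 at 15 °C, 89.1 in ded1-cs, 80.8 and 95.5 in wild-type TIF1, and 99.0 and 99.4 in tif1-ts. Depth is least certain for ded1-cs, and the lowest footprint count, 690 reads for PMP2 there, limits that change to a counting SE of 0.07.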
